A study of Mus musculus with 18 samples.

Results

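The exportins are the receptors that carry proteins and RNAs out of the nucleus, and 7 of them were followed here in mouse NIH/3T3 cells, an embryonic fibroblast line, with and without an edit of Xpo4. The members were Xpo4, Xpo1, Xpo5, Xpo6, Xpo7, Xpot and Cse1l, chosen by name, and they are 7 of the 55401 genes in the mRNA-seq tables. In the circRNA-seq tables, 41 of 16171 circular RNAs (circRNAs) lay inside these genes. The KO cells carry a CRISPR-Cas9 deletion in exon 1 of Xpo4 that shifts the reading frame on both copies, and the WT cells are the unedited line. Whether the KO line is a single clone is not given in the sources used here. The mRNA-seq data held 3 libraries titled KO and 3 titled WT. The circRNA-seq data held 2 libraries of each genotype for nuclear, for cytoplasmic and for total RNA, all treated with RNase R, which digests linear RNA. Nothing in the labels says that replicates came from separate cultures, so p-values measure the spread between these libraries, which may be technical.

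Exportins belong to the importin-beta family. They bind their cargo in the nucleus together with Ran in its GTP form, pass through the nuclear pore and release the cargo when GTP is hydrolysed in the cytoplasm. A circRNA forms when the end of an exon is joined backwards to the start of the same or an earlier exon, and the study asked how XPO4 bears on where such circles are found in the cell.

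Several facts of the libraries bear on the values below. Inside each of the 6 mRNA-seq tables, the column heading names the opposite genotype to the sample title. The titles were followed, and if the headings are right, every mRNA direction given here reverses. The count of Xpo4 does not settle this, because a frame-shifting deletion inside exon 1 leaves the rest of the gene to be counted. The mRNA-seq libraries held 16974062 to 22057323 counted reads. The library titled KO replicate 2 stood apart from the other KO libraries, with a chi-square per gene of 9.74 and 11.3 against them, where the other pairs of one genotype gave 2.92 to 4.65. The 6 fibroblast markers summed to between 19710 and 23170 counts per 1000000 counted reads (CPM). The 8 blood markers, checked because the labels' extraction text speaks of blood, summed to 1.59 to 2.36 CPM in KO and 4.76 to 5.43 CPM in WT, and 4 of them were at 0 in all 6 libraries. Nearly all of the WT sum was the leukocyte gene Ptprc (4.76 to 5.43 CPM in WT, 1.24 to 1.80 CPM in KO), while the haemoglobin gene Hba-a1 was at 0 in WT and at 0.354 to 0.449 CPM in KO. The 4 epithelial markers summed to 4.83 to 5.40 CPM in WT and 0.558 to 1.40 CPM in KO, and the 3 endothelial markers to 0.553 to 0.717 CPM in WT and 0.112 to 0.449 CPM in KO. The part of these markers in the results was not tested. The nuclear circRNA libraries were shallow, with 2189 to 4383 junction reads, against 50341 to 81941 in the others.

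The circles turn on their backsplice junctions, and those of the circles named most often below are printed so that each can be recognised in other data. Each line joins the last 15 bases of the circle's last exon, in lower case, to the first 15 bases of its first exon, in capitals, 5′ to 3′ on the strand of the gene, read from the GRCm38 genome of RefSeq.
circXpo4 exons 8 to 12, chr14:57603586-57613844, minus strand: ttattctagttacagGTACATCGAAAAATC
circXpo1 exons 20 to 21, chr11:23289758-23291631, plus strand: atgttgcagatacagGTAGCTGAAAACTTT
circXpo1 exons 12 to 13, chr11:23282529-23284380, plus strand: tgagagaaacattagGCTCTTCATTATATG
circXpo1 exons 2 to 12, chr11:23261835-23282726, plus strand: accgtgttatcaaagTAATCTATGCCAGCA
circXpo5 exons 10 to 13, chr17:46218545-46221481, plus strand: ctggacctgtgaactGCCTTAGATGCTAAC
circXpo5 exons 19 to 20, chr17:46229312-46230380, plus strand: gcttgcccttgtaagAGCGCTGTCAGATAT
circXpo6 exons 7 to 9, chr7:126140565-126153279, minus strand: agcagttctcaacagGTGATTTACTGAGTA
circXpo6 exons 16 to 17, chr7:126112752-126113803, minus strand: tgccacttggtgacaGTCCAAGACAAGTTG
circXpo7 exons 2 to 8, chr14:70695614-70707433, minus strand: tcgttctcacctttgAGCCTGGCCCAACTA
circXpo7 exons 21 to 27, chr14:70667022-70676814, minus strand: gaaaaacagagacagATACCCCTCCTACAT
circCse1l exons 4 to 6, chr2:166921970-166922844, plus strand: actaatctattcaagGTTGAAGATGAACCA
circCse1l exons 18 to 19, chr2:166939635-166940118, plus strand: gcagctgacaaaattAATCCCAGTAAACCT
circCse1l exons 18 to 21, chr2:166939635-166941492, plus strand: ccaagtttatcaagaAATCCCAGTAAACCT
The last pair share their capitals, because both circles begin at exon 18 of Cse1l.

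Xpo4 itself was the least abundant of the 7 exportins and its mRNA was not lost in the libraries titled KO. XPO4 carries the translation factor eIF5A and the signalling protein Smad3 out of the nucleus. The gene lies at chr14:57577521-57665430 on the minus strand of GRCm38, and exon 1, the edited exon, covers 57664888 to 57665430 with 69 coding bases. Xpo4 stood at 33.0, 31.4 and 31.1 CPM in the WT libraries and at 39.9, 28.1 and 40.5 CPM in the KO libraries. KO replicates 1 and 3 lay above all WT libraries and KO replicate 2 lay below them, so the groups overlapped. The log2 fold change of KO over WT was 0.18 (SE 0.11, 95% interval -0.06 to 0.42, adjusted p = 0.193, edgeR). Without KO replicate 2 it was 0.34, with an adjusted p of 0.000252, so that library decided the call. Xpo4 shares 332 of its 10731 counted bases with the gene Gm49361.

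**Figure D1:**
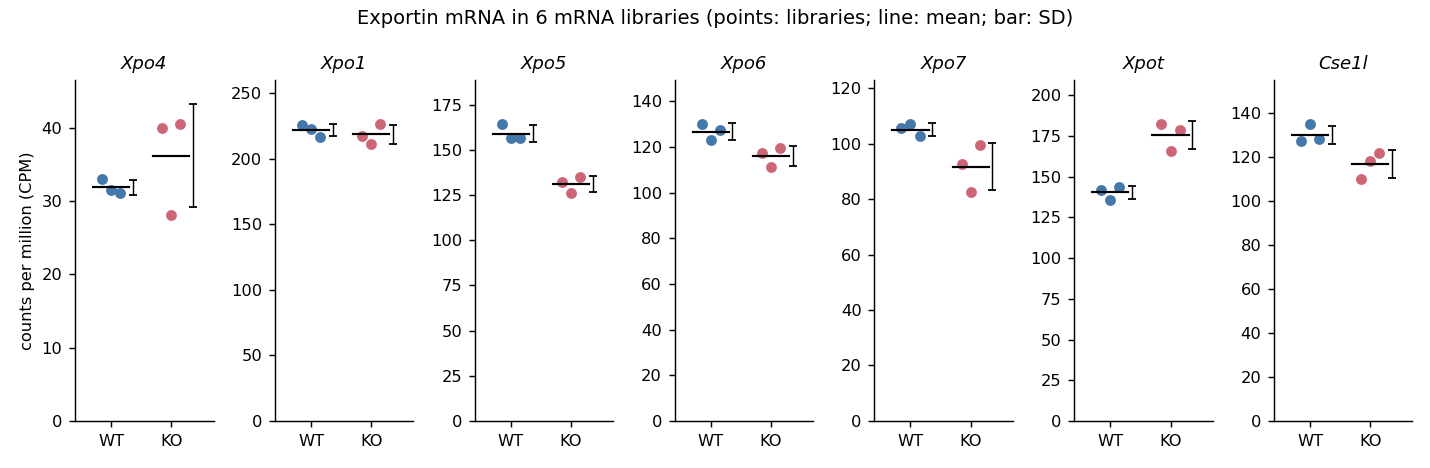
CPM of each exportin (y axis, from 0, a separate scale for each gene) in the mRNA-seq libraries titled WT and KO, with the mean as a line and the SD as a bar (n = 3 each). The groups are apart for Xpo5, Xpo6, Xpo7, Xpot and Cse1l and overlap for Xpo4 and Xpo1, and the low KO point of Xpo4 is replicate 2.

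Of the 7 exportins, 4 passed the test, with Xpot higher and Xpo5, Xpo7 and Cse1l lower in KO. Over all 14688 genes tested, 48.7% passed (25.1% higher and 23.6% lower), so a share of this size is near the background. The libraries of the genotypes did not overlap for 5 of the 7, beside 57.8% of all genes tested. The median log2 fold change of the 7 was -0.13, beside -0.003 over all genes. In bulk RNA, fewer cells of a type and less RNA per cell cannot be told apart.

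XPOT carries mature tRNAs to the cytoplasm. Xpot mRNA stood at 141.7, 136.0 and 143.9 CPM in WT and at 182.3, 166.1 and 178.5 CPM in KO. Every KO library lay above every WT library, and the log2 fold change was 0.32 (SE 0.06, adjusted p = 0.000382), which is 1.25-fold.

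XPO5 exports microRNA precursors. Xpo5 mRNA stood at 164.3, 156.5 and 156.7 CPM in WT and at 132.4, 126.4 and 135.3 CPM in KO. The groups did not overlap, and Xpo5 was 1.21-fold lower in KO (log2 fold change -0.28, SE 0.05, adjusted p = 0.000818), a call that held in 11 of 11 alternative fits.

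XPO7 has a broad range of protein cargoes. Xpo7 mRNA stood at 105.7, 107.0 and 102.6 CPM in WT and at 92.6, 82.7 and 99.7 CPM in KO. All KO libraries were below the WT libraries (log2 fold change -0.20, SE 0.07, adjusted p = 0.0230), and the call held in 7 of 11 alternative fits. The adjusted p was 0.0650 without KO replicate 1, 0.0509 without KO replicate 2, 0.0610 without WT replicate 1 and 0.0836 without WT replicate 2.

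CSE1L, also called CAS, returns importin-alpha to the cytoplasm after import. Cse1l mRNA stood at 127.1, 134.7 and 128.0 CPM in WT and at 109.7, 118.2 and 121.8 CPM in KO. The groups were apart (log2 fold change -0.16, SE 0.06, adjusted p = 0.0411), and the call held in 6 of 11 alternative fits. Without KO replicate 1 the adjusted p was 0.209, and without WT replicate 1, 2 or 3 it was 0.0635, 0.156 and 0.0863.

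XPO6 exports actin bound to profilin. Xpo6 mRNA stood at 129.9, 122.9 and 127.3 CPM in WT and at 117.3, 111.0 and 119.4 CPM in KO. The groups did not overlap, yet the difference missed the threshold (log2 fold change -0.13, SE 0.05, adjusted p = 0.0647).

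XPO1, also called CRM1, exports proteins with a leucine-rich signal and several kinds of RNA through adaptors. Xpo1 mRNA stood at 226.0, 223.2 and 217.1 CPM in WT and at 217.8, 211.7 and 226.5 CPM in KO. The libraries overlapped, and the log2 fold change was -0.02 (95% interval -0.14 to 0.09, adjusted p = 0.721).

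With no correction for depth, the median of all genes moved to -0.22 on the log2 scale. Relative to that median, Xpot stood at 0.32 and Xpo4 at 0.18, close to their values with TMM, while as fitted Xpot was no longer called and Xpo4 changed sign to -0.04. The exportins called in that fit were 0 higher and 5 lower, since Xpo1 (-0.24, adjusted p = 0.0220) and Xpo6 (-0.35, adjusted p = 0.000674) passed as well. With no filter on low counts, 3 exportins passed, and Cse1l was not among them (adjusted p = 0.0612).

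Per length, the 7 exportins differed by far more than the genotypes did. Levels are given as FPKM, the count scaled for the length of merged exons and for depth, averaged over 3 libraries. In WT, Xpo1 stood highest at 30.9, followed by Cse1l at 24.6, Xpot at 23.3 and Xpo5 at 23.2. The level then dropped to 7.49 for Xpo6, 5.53 for Xpo7 and 2.97 for Xpo4. Of the neighbours in the WT order, Xpot and Xpo5 overlapped and the other pairs did not. In KO, Xpo1 stood at 30.5, Xpot at 29.1, Cse1l at 22.1 and Xpo5 at 19.2, followed by Xpo6 at 6.85, Xpo7 at 4.82 and Xpo4 at 3.37. There, Xpo1 and Xpot overlapped and the other neighbours did not. On this scale, Xpot and Cse1l were thus apart in both genotypes, with Cse1l above Xpot in WT and below it in KO.

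The values of Xpo6 and Xpo7 depend on the length used, since their merged exons cover 16920 and 19005 bases. Over the length of the main transcript, an alternative chosen after seeing the data, Xpo6 averaged 27.8 FPKM in WT, above Xpot at 23.5, and 25.5 FPKM in KO, below Xpot at 29.3, without overlap in either genotype. The order of Cse1l and Xpot also depended on the length. By main transcript, Cse1l averaged above Xpot in both genotypes, at 35.7 against 23.5 FPKM in WT and 32.0 against 29.3 FPKM in KO. Their libraries overlapped in KO. Xpo7 and Xpo4 were still the lowest, at 6.95 and 3.67 FPKM in WT and at 6.06 and 4.17 FPKM in KO.

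The genes whose pattern over the 6 libraries was most like that of Xpo4 were Gapvd1, Erbin, Senp5, AC140073.1 and Zbtb39, with Pearson's r of log2 CPM from 0.982 to 0.989 among 13238 genes compared. Each of them was lowest in KO replicate 2. Among the exportins, Xpot was the most like Xpo4 (r = 0.603) and Cse1l the least (r = -0.519). These correlations share the 6 libraries and are given as a description.

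Other genes of nuclear transport moved in both directions. Of 12 import receptors, which bring cargo into the nucleus, 1 was higher and 6 were lower in KO, with a median log2 fold change of -0.15, where 25.1% of all genes tested were higher and 23.6% lower. Ipo5 fell the most clearly, from 413 to 253 CPM on average (log2 fold change -0.71, adjusted p = 1.44e-07), and Ipo13 was the one that rose, from 128 to 176 CPM (0.46, adjusted p = 1.02e-05). Of 5 importin-alpha adaptors tested, which link cargo to the receptor Kpnb1, 0 passed with edgeR or DESeq2 and 1 had an unadjusted p under 0.05 with edgeR, and the closest were Kpna4 (0.13, adjusted p = 0.0588) and Kpna3 (0.13, adjusted p = 0.102). Kpna7 was too low to test. The median of the adaptors was 0.08. Of 7 genes of the Ran cycle, 1 was higher and 2 were lower, with a median of -0.08. The higher one was Ranbp2 (0.27, adjusted p = 0.00917). The lower ones were Rcc1, which loads Ran with GTP in the nucleus (-0.38, adjusted p = 0.000222), and Rangap1, which makes Ran hydrolyse it in the cytoplasm (-0.25, adjusted p = 0.00199). With no correction for depth, the import receptors gave 1 higher and 8 lower, the adaptors 0 in either direction and the Ran cycle 0 higher and 5 lower.

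Among exportin cargoes and adaptors, 13 of 14 were tested, 5 were higher and 3 were lower, with a median log2 fold change of 0.14, beside 48.7% of all genes called in either direction. The 4 actin and profilin genes, the cargo of XPO6, were higher in KO, where 25.1% of all genes were. Pfn2 averaged 140 CPM in WT and 216 CPM in KO (0.62, adjusted p = 9.00e-07), and Actg1 averaged 1133 CPM in WT and 1719 CPM in KO (0.60, adjusted p = 2.67e-06). The 3 microRNA processing genes, which act beside XPO5, were lower, as were 23.6% of all genes, from -0.57 for Drosha to -0.28 for Dicer1. Of the XPO4 cargoes, Eif5a, Eif5a2 and Smad3 did not pass, at -0.03, 0.28 and 0.08, and Sox2 was at 0 in every library. The fifth gene that rose was Nmd3, an adaptor of XPO1 for the large ribosomal subunit (0.54, adjusted p = 1.85e-05). With no correction for depth these 8 calls kept their directions and the counts became 5 higher and 5 lower.

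**Figure D2:**
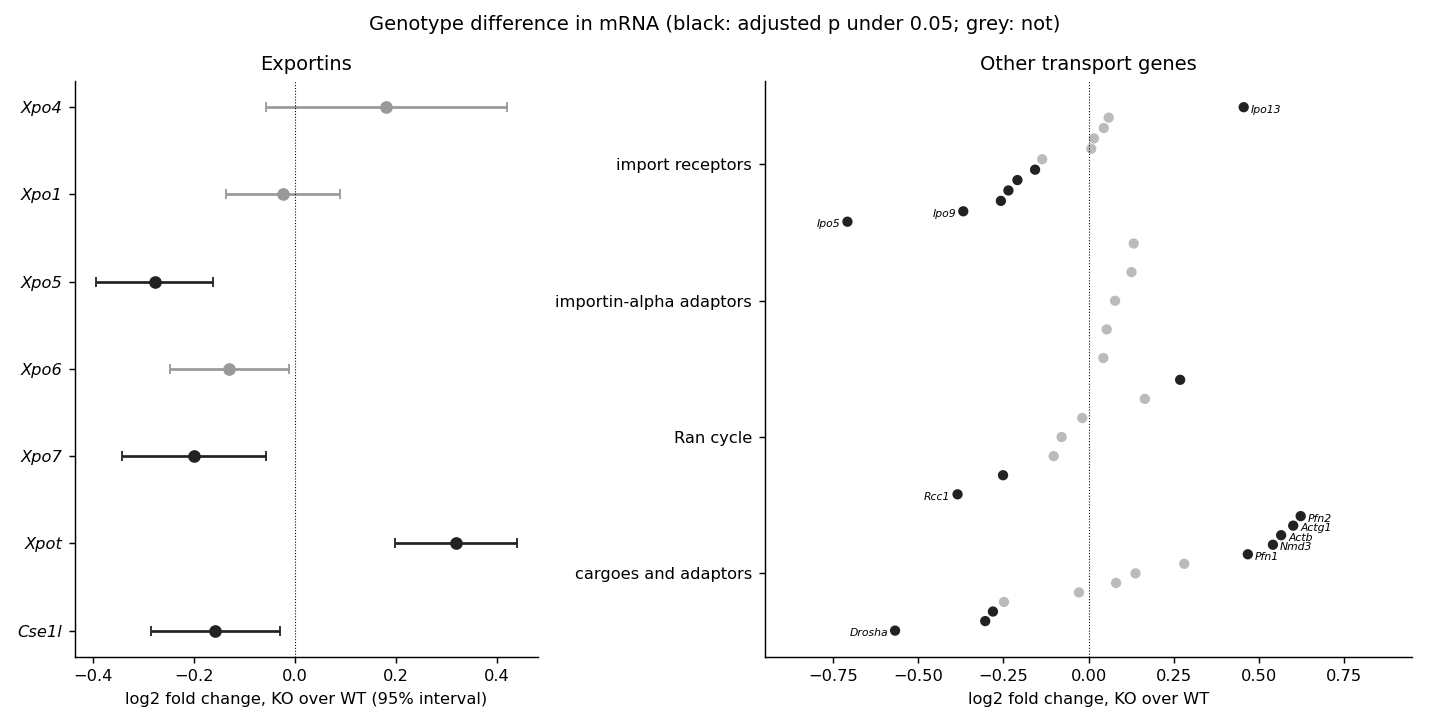
Log2 fold change of the libraries titled KO over those titled WT (x axis) for the 7 exportins with 95% intervals (left) and for the genes of 4 other transport lists (right), black where the adjusted p is under 0.05. Xpot lies to the right of 0 and Xpo5, Xpo7 and Cse1l to the left, and the actin, profilin and Nmd3 points form the group at the far right of the cargo list.

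The exportin genes themselves gave rise to circles in 6 of 7 cases. Xpo6 held 14 circRNAs, Xpo1 10, Xpo5 6, Xpo7 4, Cse1l 4 and Xpo4 3, while Xpot had none in the 12 libraries. Among all genes tested for mRNA, 31.7% held at least 1 circRNA, and among those within the exportins' range of CPM, 50.3%. A count of 0 for Xpot allows up to 3 junction reads in each library, which is 0.0366 to 1.37 per 1000 junction reads (counting error only). That bound holds only if the lists left out no circle that had reads. No exportin circle was listed with fewer than 6 reads over the 12 libraries, so circles with few reads may be missing.

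All 41 circles had both ends on exon edges of the main transcript, between an AG before the first exon and a GT after the last. The shares of all circRNAs with these traits were not determined, so they are not given as particular to exportin circles. They joined 2 to 11 exons, with a median spliced length of 544 nt, and 39 consisted of coding sequence alone. None of them included exon 1, and 7 began at exon 2. Ends were often used more than once: 32 of the 41 (78.0%) shared an end with another circRNA, beside 63.7% of all circRNAs. The start of Xpo6 exon 7 was shared by 4 circles, and the end of Xpo1 exon 12 by 4.

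**Figure D3:**
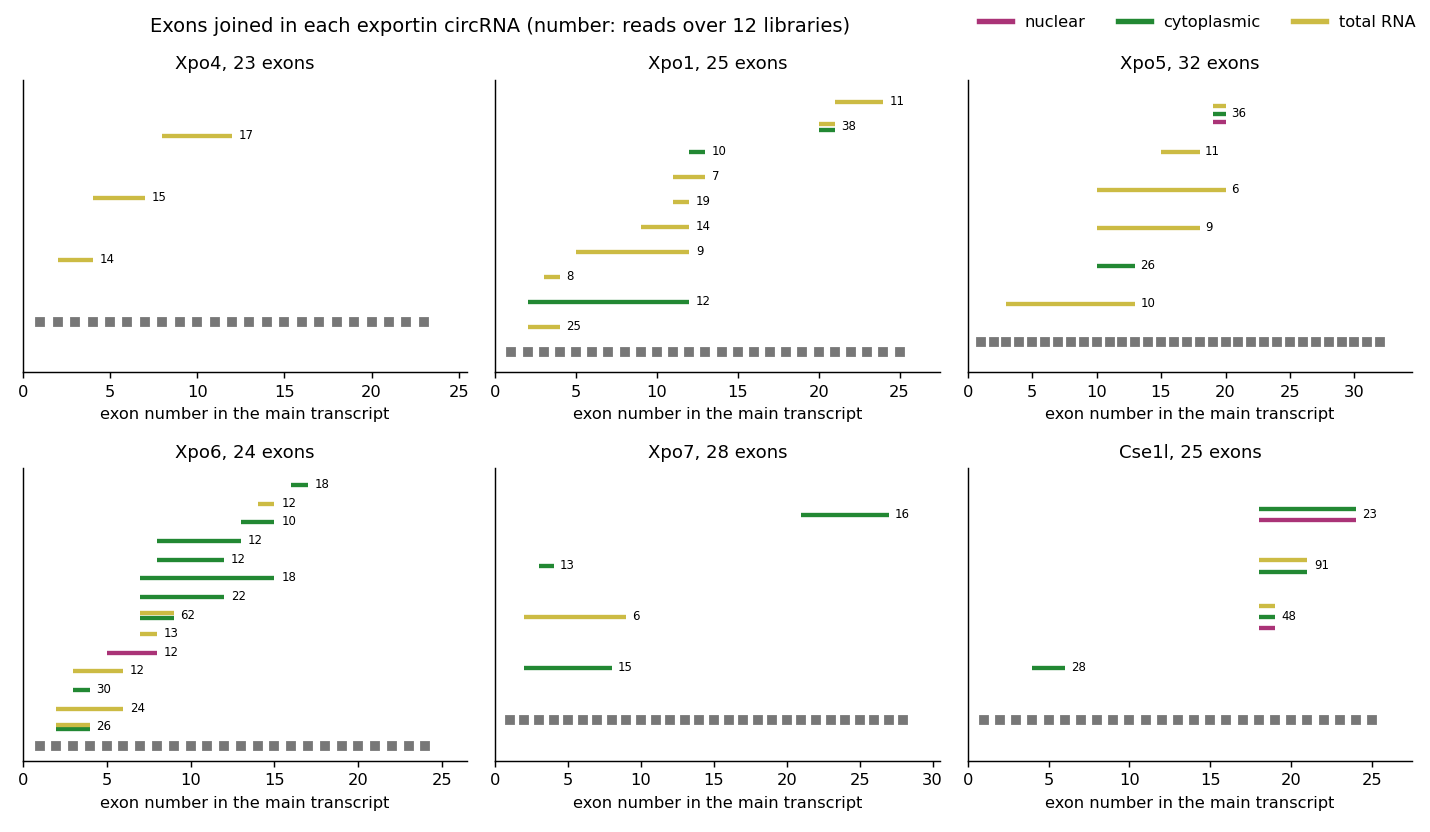
Exons joined in each of the 41 circRNAs, drawn over the exon numbers of the main transcript (x axis, grey squares), with a bar for each fraction in which the circle was listed and the reads over 12 libraries as a number. The 3 Xpo4 circles appear in total RNA alone, and 3 of the 4 Cse1l circles begin at exon 18.

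The fractions listed largely separate sets of circles. Of the 41, 19 were listed in total RNA alone, 14 in the cytoplasm alone and 4 in both, while 1 was nuclear alone, 1 nuclear and cytoplasmic, and 2 were in all 3 fractions. Over all circRNAs, 36% were listed in total RNA alone, 29.7% in the cytoplasm alone and 27.1% in the cytoplasm and total RNA. The same shares of the exportin circles were 46.3%, 34.1% and 9.76%. Listing in a single fraction was thus common among all circRNAs too. No test was made of these differences.

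Xpo4 gave 3 circles, all of them listed in total RNA and in neither fraction. The circle of exons 8 to 12 had 2 and 1 reads in WT against 5 and 9 in KO. That of exons 4 to 7 had 7 and 5 reads in WT against 1 and 2 in KO, and that of exons 2 to 4 had 1 and 3 in WT against 6 and 4 in KO. In 2 of them KO lay above WT, and in the circle of exons 4 to 7 below, without overlap of the libraries. Libraries did not overlap for 21 of the 25 exportin circles of total RNA, beside 68.2% of all circRNAs there. None of the 3 passed the test as fitted, at log2 fold changes of 2.17 (SE 0.68, adjusted p = 0.0660), -1.87 (SE 0.65, adjusted p = 0.0827) and 1.31 (SE 0.65, adjusted p = 0.188). The circle of exons 8 to 12 did pass with DESeq2 size factors (adjusted p = 0.0334), with the total of circRNA reads as library size (0.0286) and with the replicate number as a block (0.0294). That circle reached the filter of 10 summed reads only through its KO libraries. Summed over the gene, Xpo4 circles had 10 and 9 reads in WT against 12 and 15 in KO.

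In total RNA as a whole, 0 of 17 exportin circles tested passed with edgeR, where 0% of 8903 circRNAs did. At an unadjusted p under 0.05, edgeR gave 10 of the 17, beside 38.2% of all, and DESeq2 called 0. Of the 17, 5 passed with DESeq2 size factors, beside 20.6% of all circRNAs of total RNA, 5 with the total of circRNA reads as library size, beside 22.5%, and 5 with the replicate block, beside 23.1%. Without WT replicate 1, 2 exportin circles passed, beside 8.54% of all.

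In the cytoplasm, 21 exportin circles had enough reads to test. Of these, 7 were higher and 2 were lower in KO, beside 30% higher and 23.5% lower (53.5% in all) of 8917 cytoplasmic circRNAs, so the exportin share of 9 in 21 is not above the background. The 9 had at most 3 summed reads in the lower genotype, and reached the filter of 10 summed reads only through the other genotype. Their calls and fold changes are thus not free of that selection, which applied to all cytoplasmic circRNAs. Libraries did not overlap for 15 of the 21, beside 82.7% of all cytoplasmic circRNAs. DESeq2 called 2 of the 21, circCse1l exons 4 to 6 and circXpo1 exons 20 to 21. The other circles called by edgeR did not pass with DESeq2. The median log2 fold change of all cytoplasmic circRNAs was -0.25, and with no scaling it was -0.77 and 4 exportin circles passed.

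The largest difference was in circCse1l exons 4 to 6, with 0 and 1 reads in WT against 15 and 12 in KO. Both KO libraries stood far above both WT libraries (log2 fold change 4.94, SE 0.72, adjusted p = 0.000138), and the call held in 10 of 10 alternative fits. The size rested on few WT reads, at 3.95 without WT replicate 1 and 6.79 without WT replicate 2. The ratio of summed reads, scaled by TMM, was 39.4 (95% exact interval 6.49 to 1613, counting error only). A second circle of the gene, circCse1l exons 18 to 19, had 1 and 2 reads in WT against 5 and 5 in KO (2.17, SE 0.69, adjusted p = 0.0184), and was not called without WT replicate 1 (adjusted p = 0.139) or WT replicate 2 (0.105). The most abundant exportin circle, circCse1l exons 18 to 21, had 13 and 10 reads in WT against 21 and 18 in KO, with no overlap, and missed the threshold (1.30, SE 0.60, adjusted p = 0.0694), but passed it without KO replicate 1 (adjusted p = 0.0482) or KO replicate 2 (0.0330). The fourth, circCse1l exons 18 to 24, had 5 reads in each WT library against 2 in each KO library and was not called (-0.75, SE 0.67, adjusted p = 0.415).

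Xpo1 had 3 cytoplasmic circles and all 3 were higher in KO. circXpo1 exons 20 to 21 had 2 and 0 reads in WT against 6 and 22 in KO, which were themselves far apart (4.15, SE 0.76, adjusted p = 0.000369). Its log2 fold change was 2.73 without WT replicate 2 and 6.94 without WT replicate 1, it had too few reads to test without KO replicate 2, and with no scaling it was not called (adjusted p = 0.125). circXpo1 exons 12 to 13 had 1 and 0 reads in WT against 4 and 5 in KO (3.37, SE 0.90, adjusted p = 0.00424). circXpo1 exons 2 to 12, which joins 11 exons, had 1 and 2 reads in WT against 6 and 3 in KO (2.03, SE 0.74, adjusted p = 0.0320). Without WT replicate 2, the circles of exons 12 to 13 and of exons 2 to 12 were not called (adjusted p = 0.141 for both), nor was the latter without WT replicate 1 (0.192) or with the replicate block (0.0530). Xpo1 mRNA differed by -0.02 on the log2 scale, in other libraries than these.

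Xpo7 gave 2 circles that were higher in KO. circXpo7 exons 2 to 8 had 1 read in each WT library against 7 and 6 in KO (3.07, SE 0.70, adjusted p = 0.00154). circXpo7 exons 21 to 27 had 2 and 1 reads in WT against 8 and 5 in KO (2.55, SE 0.68, adjusted p = 0.00424). Without WT replicate 2 neither was called, with adjusted p of 0.0573 and 0.153, and without KO replicate 1 neither had enough reads to test. Another circle, circXpo7 exons 3 to 4, had 3 and 7 reads in WT against 0 and 3 in KO, with overlap, and was not called (-1.14, SE 0.82, adjusted p = 0.238).

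The lower circles came from Xpo5 and Xpo6. circXpo5 exons 10 to 13 had 12 reads in each WT library against 0 and 2 in KO, without overlap (-2.92, SE 0.71, adjusted p = 0.00222). circXpo6 exons 16 to 17 had 7 and 9 reads in WT and 1 read in each KO library (-2.34, SE 0.71, adjusted p = 0.0138). circXpo5 exons 10 to 13 was not called without KO replicate 1 (-1.58, adjusted p = 0.164) and stood at -6.32 without KO replicate 2, and circXpo6 exons 16 to 17 was not called without KO replicate 1 (0.192) or KO replicate 2 (0.234). The most abundant circles of these genes did not pass, circXpo5 exons 19 to 20 with 5 and 7 reads in WT against 3 and 5 in KO, and circXpo6 exons 7 to 9 with 5 and 19 in WT against 6 and 5 in KO.

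**Figure D4:**
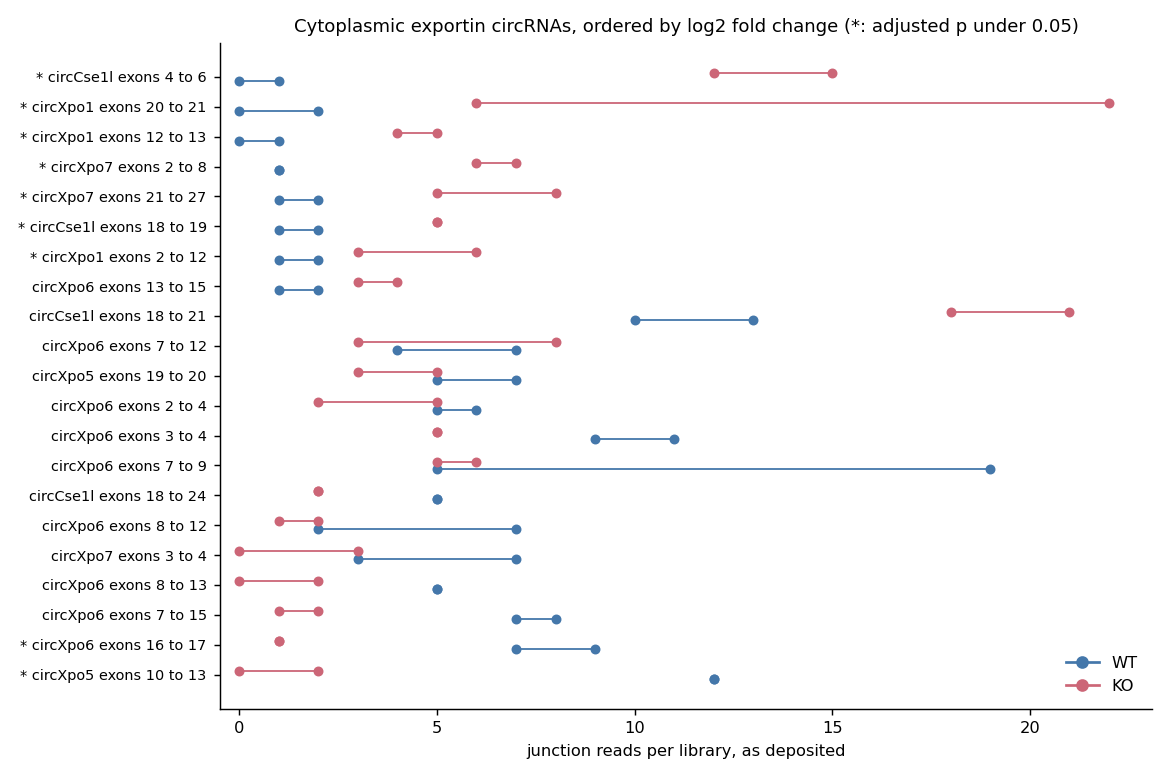
Junction reads in each cytoplasmic library (x axis, as deposited, not scaled for depth) for the 21 exportin circRNAs tested, ordered by log2 fold change, with a line between the 2 libraries of a genotype and a star where the adjusted p is under 0.05. The 7 starred circles at the top have every KO library above every WT library, and the 2 at the bottom the reverse.

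Summed by gene, cytoplasmic reads were higher in KO for Xpo1 (4 and 2 in WT, 16 and 30 in KO), Xpo7 (6 and 9 in WT, 15 and 14 in KO) and Cse1l (19 and 18 in WT, 43 and 37 in KO). They were lower for Xpo5 (17 and 19 in WT, 3 and 7 in KO) and Xpo6 (47 and 72 in WT, 28 in each KO library). Over all exportin circles these cancelled to 93 and 120 reads in WT against 105 and 116 in KO. The exact permutation test of the log2 sums gave p = 1 (two-sided), where the smallest p that 2 against 2 libraries allow is 0.333. The WT cytoplasmic libraries held more circRNA junction reads in all, and whether through sequencing depth or genotype was not tested. As a share of those totals, exportin reads came to 1.33 ± 0.190 per 1000 junction reads in WT and 1.95 ± 0.171 in KO (SD, n = 2, exact permutation p = 0.333).

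In the nucleus, 4 exportin circles were listed and 2 had enough reads to test. Each of these 2 reached the filter of 10 summed reads only through its KO libraries. circCse1l exons 18 to 19 had 1 read in each WT library against 7 and 4 in KO, and circXpo6 exons 5 to 8 had 1 in each WT library against 3 and 7 in KO. KO lay above WT in both, 2 of the 4 listed, beside 60.9% of nuclear circRNAs whose libraries did not overlap. Neither passed with edgeR (1.43, SE 0.91, adjusted p = 0.316, and 1.30, SE 0.92, adjusted p = 0.378), beside 10.1% of 651 nuclear circRNAs. Neither had an unadjusted p under 0.05, beside 26.1% of all, and DESeq2 called 0. Summed nuclear reads came to 5 and 3 in WT against 12 and 17 in KO, a 3.12-fold difference of the mean logs with the smallest exact permutation p the design allows, 0.333. As shares, they were 1.71 ± 0.810 per 1000 junction reads in WT and 3.54 ± 0.476 in KO (SD, n = 2).

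**Figure D5:**
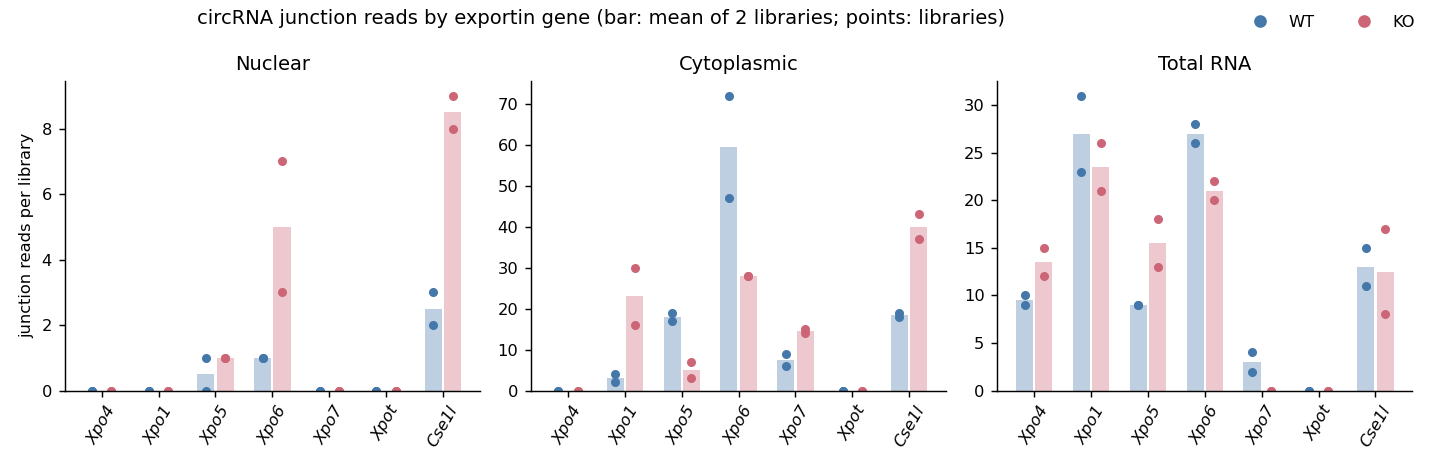
Junction reads of all circRNAs inside each exportin gene (y axis, reads per library as deposited, from 0, a separate scale for each fraction), with bars for the mean of 2 libraries and points for the libraries. Nuclear reads come from Cse1l, Xpo6 and Xpo5 alone, Xpo4 reads from total RNA alone, and Xpot has none.

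Whether the balance between nucleus and cytoplasm changed could be followed in few circles, since 3 of the 41 were listed in both. The Nuc/Cyto ratio changed between WT and KO by 0.44 (SE 1.32) for circXpo5 exons 19 to 20, by -0.26 (SE 0.65) for circCse1l exons 18 to 19 and by 1.14 (SE 1.01) for circCse1l exons 18 to 24, on the log2 scale. Of 22 exportin circles in that fit, 0 passed with edgeR and 0 had an unadjusted p under 0.05. DESeq2 gave 0 on both counts. Of the 9266 circRNAs fitted, 0% passed, with 1.24% at an unadjusted p under 0.05. Apart from the 3 circles above, the exportin circles fitted had 0 reads throughout the nucleus or throughout the cytoplasm. For those, a change of the ratio could not be estimated, and no conclusion is drawn from these counts. The same limit applies to most of the 9266. Among all circRNAs, 47 were listed in the nucleus and cytoplasm but not in total RNA, and 425 in all 3 fractions.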

How the data were processed

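For mRNA-seq, the authors aligned with HISAT2 and deposited raw gene counts, made over exons with no strand setting by featureCounts (version 2.0.0, per the file headers). For circRNA-seq, find_circ was run and the authors deposited backsplice counts as a list of positions on mm10 (GRCm38), with no strand. The methods speak of normalized levels, whereas all values deposited are whole counts.

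CircRNAs were assigned to an exportin where both ends lay inside the gene (GENCODE vM21). Absent circRNAs were entered as 0, although the lists may have left out circles with few reads. Genotypes were compared with the quasi-likelihood test of edgeR (version 4.0.16 under R 4.3.3) after TMM scaling and Benjamini-Hochberg adjustment over all features, threshold 0.05, after edgeR's filter on low counts for genes and at least 10 summed reads for circRNAs. DESeq2 (version 1.42.0) was an alternative, with other scalings, no filter, the replicate number as a block, and each library left out. Intervals of ratios are 95% exact binomial, and a count of 0 allows 3 reads, provided that the lists left out no circle with reads. Sums were compared as log2(reads + 1) by two-sided exact permutation of libraries (Python 3.11.15, scipy 1.17.1). PCR reads are not independent molecules. Scripts were tested on simulated counts with known changes and a fixed spread, which does not show how reliable the calls made here are.

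The members and lists were chosen with earlier results of these data known. Named were the 7 exportins, the 2 genes with the smallest p in each transport list, the circRNA with most reads of each gene and up to 3 with an adjusted p under 0.05, and the 5 genes of at least 1 CPM most like Xpo4. Ranbp2, Nmd3, Drosha, Dicer1, the XPO4 cargoes and the other circles named were added after their values were seen.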

Additional observations from a re-analysis of the deposited data

Results flagged for a closer look

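Some circles, and some sums over the circles of a gene, differed between KO and WT in opposite directions in different fractions. The libraries did not overlap in either fraction, and these items were picked for this difference. Libraries did not overlap for 82.7% of all cytoplasmic circRNAs, 68.2% of those in total RNA and 60.9% of nuclear ones. The share of all circRNAs with opposite directions between fractions was not determined. The sums join different circles in different fractions, so they do not show that the same circle reversed. The Xpo7 circle of total RNA, exons 2 to 9, was not listed in the cytoplasm. In total RNA, that circle and circXpo1 exons 20 to 21 had too few reads to test. The nuclear Xpo6 circle, exons 5 to 8, was listed in the nucleus alone. For circXpo5 exons 19 to 20, listed in cytoplasm and total RNA, the cytoplasmic libraries overlapped. None of these differences between fractions was tested. Each value is the KO minus WT mean of log2(reads + 1) in the first fraction less that in the second, from reads as deposited. For circXpo1 exons 20 to 21, reads were higher in KO in the cytoplasm and lower in total RNA (5 and 2 in WT, 0 and 1 in KO), a difference of 4.46. For circCse1l exons 18 to 19, they were higher in KO in the cytoplasm and the nucleus and lower in total RNA (8 and 6 in WT, 4 in each KO library), with differences of 1.96 for the cytoplasm and 2.33 for the nucleus. Summed over Xpo7, reads were higher in the cytoplasm and lower in total RNA (2 and 4 in WT, 0 in both KO libraries), a difference of 2.84. Summed over Xpo5, they were lower in the cytoplasm and higher in total RNA (9 in each WT library, 13 and 18 in KO), a difference of -2.45. Summed over Xpo6, they were higher in the nucleus and lower elsewhere, with differences of 2.53 to the cytoplasm and 1.85 to total RNA. The library totals of circRNA junction reads differed between KO and WT, and whether through sequencing depth or genotype was not tested. Those totals have a part in these values, because KO totals stood above or below WT totals to a different extent in each fraction. Less that part, the differences were 4.89 for circXpo1 exons 20 to 21, 2.39 and 1.51 for circCse1l exons 18 to 19, 3.28 for Xpo7, -2.02 for Xpo5, and 1.28 and 1.03 for Xpo6, and each fraction kept its direction.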

How the results depend on the processing

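Of the 7 exportin mRNAs, 4 passed as reported, 3 with no filter, 5 with no scaling and 2 to 4 with each library left out. Cytoplasmic exportin circles passed in 9 cases as reported, in 2 with DESeq2, in 4 with no scaling, and in 3 to 6 with a library left out. In total RNA, 0 passed as reported and 5 with DESeq2 size factors, with the total of circRNA reads as library size or with the replicate block, and 0 to 2 with a library left out. Summed cytoplasmic reads (log2 KO minus WT 0.06) ranged from -0.120 to 0.245 without one library, and summed total reads (-0.04) from -0.0913 to 0.00824, with 0.0185 as a share of the library. By length of the main transcript, 3 of 7 exportins kept their rank in the mean over 6 libraries. Xpo4 mRNA was -0.0396 with no scaling. circXpo5 exons 19 to 20 in the cytoplasm turned to 0.0545 with DESeq2 and 0.0573 with DESeq2 size factors, and ranged from -0.423 to 0.693 without one library. circXpo6 exons 7 to 9 in the cytoplasm ranged from -1.39 to 0.160, and circCse1l exons 18 to 21 in total RNA from -0.128 to 1.49. The causes were not tested. Without KO replicate 1 or 2, no nuclear exportin circle had enough reads to test. The replicate number is not named as a shared culture, so the replicate block was only an alternative. Correlations between the deviations of same-numbered libraries ran from -0.112 to 0.0914. With the block, 4 exportin mRNAs, 8 cytoplasmic circles and 5 circles of total RNA passed. The nuclear libraries held 2189 to 4383 junction reads, which limits the precision of nuclear and Nuc/Cyto values.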
